A study of Homo sapiens with 6 samples.

Results

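The windows described here cover tRNA genes in a stretch of human chromosome 6 that is rich in alanine tRNA genes. A window belonged to the set when its deposited label was tRNA, its chromosome was 6 and its deposited start lay from 28200000 to 29500000 on GRCh38. This rule, which uses no read count, gave 45 windows of 53603 in the table and of 534 labelled tRNA. Their windows ran from position 28212887 to position 28989251, a span of 776 kb within the extended major histocompatibility complex region. Each window is 400 bp long and begins 150 bp before a start site, so it holds the whole tRNA gene and its flanks.

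The cells were HEK293T, an established line from human embryonic kidney, and small RNA was sequenced from them 48 h after an siRNA was given at 150 nM with Lipofectamine RNAi Max. The control arm received a control siRNA and the La knockdown arm an siRNA against La, the protein encoded by SSB, with 3 biological replicates per arm and 6 libraries in all. All values therefore come from 1 cell line, and the siRNA sequences were not used here. Windows of the SSB start sites, which read small RNA and not mRNA, had counts of 4, 3 and 3 among controls against 1, 0 and 0 after La knockdown (PCG_40419), and of 0, 0 and 1 against 0, 2 and 0 (PCG_12982). The depth of the knockdown, like the marker mRNAs of the cell line, was thus not measured in these counts. Total counts per library ran from 3066299 to 4105806.

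tRNA genes are transcribed by RNA polymerase III from promoters inside the gene, and each primary transcript ends in a run of uridines. La binds that uridine tail on new transcripts, shields it from exonucleases and helps the precursor fold and be trimmed to the mature tRNA. A tRNA is named for the amino acid it carries (its isotype) and for its anticodon. In the RefSeq symbols used here, TRA-AGC6-1 is an alanine tRNA gene with anticodon AGC, the number after the anticodon marks a distinct mature sequence, and the last number marks the gene copy. Reads of a mature tRNA, of its fragments and of its precursor fall in the same window and cannot be told apart in these counts.

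A RefSeq tRNA gene overlapped 41 of the 45 windows. Alanine led with 15 genes, which is 36.6% of the named windows, against 3.48% of the 345 named tRNA windows elsewhere. Among the alanine genes 8 had anticodon AGC, 5 had TGC and 2 had CGC. Threonine, phenylalanine and leucine had 4 genes each, arginine 3, glutamine, serine, lysine and methionine 2 each, and glutamate, isoleucine and valine 1 each. The stretch was chosen as rich in alanine tRNA genes, so these numbers describe that choice and do not test it.

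The genes were spread over the stretch on both strands. From the position of the gene in its window, 17 genes read forward and 23 in reverse, and 1 (TRS-GCT4-1) did not sit at the expected place. Neighbouring windows started a median of 7.18 kb apart, from 520 bp to 261 kb. No window overlapped another of the set or a window of another class, and no pair of them had identical counts.

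By reads the stretch was not led by alanine. Levels are given as CPM, the count relative to the TMM-scaled library size, per window of equal length. In the control arm TRE-CTC1-6, a glutamate gene (gene at positions 28982199 to 28982270), held 30.8% of the CPM of the 45 windows, and together with TRK-TTT7-1, a lysine gene (28747744 to 28747816), 56.8%. The other copies of the TRE-CTC1 mature sequence had nearly the same counts. Reads of TRE-CTC1-6 may not be told apart from theirs, which limits both shares. The 10 windows with the most reads held 85.8%. The 15 alanine windows had control means from 5.82 CPM (TRA-TGC6-1) to 71.8 CPM (TRA-AGC6-1), with a median of 32.6. Over all 6 libraries 9.04% of the counts of the stretch lay in alanine windows.

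**Figure D1:**
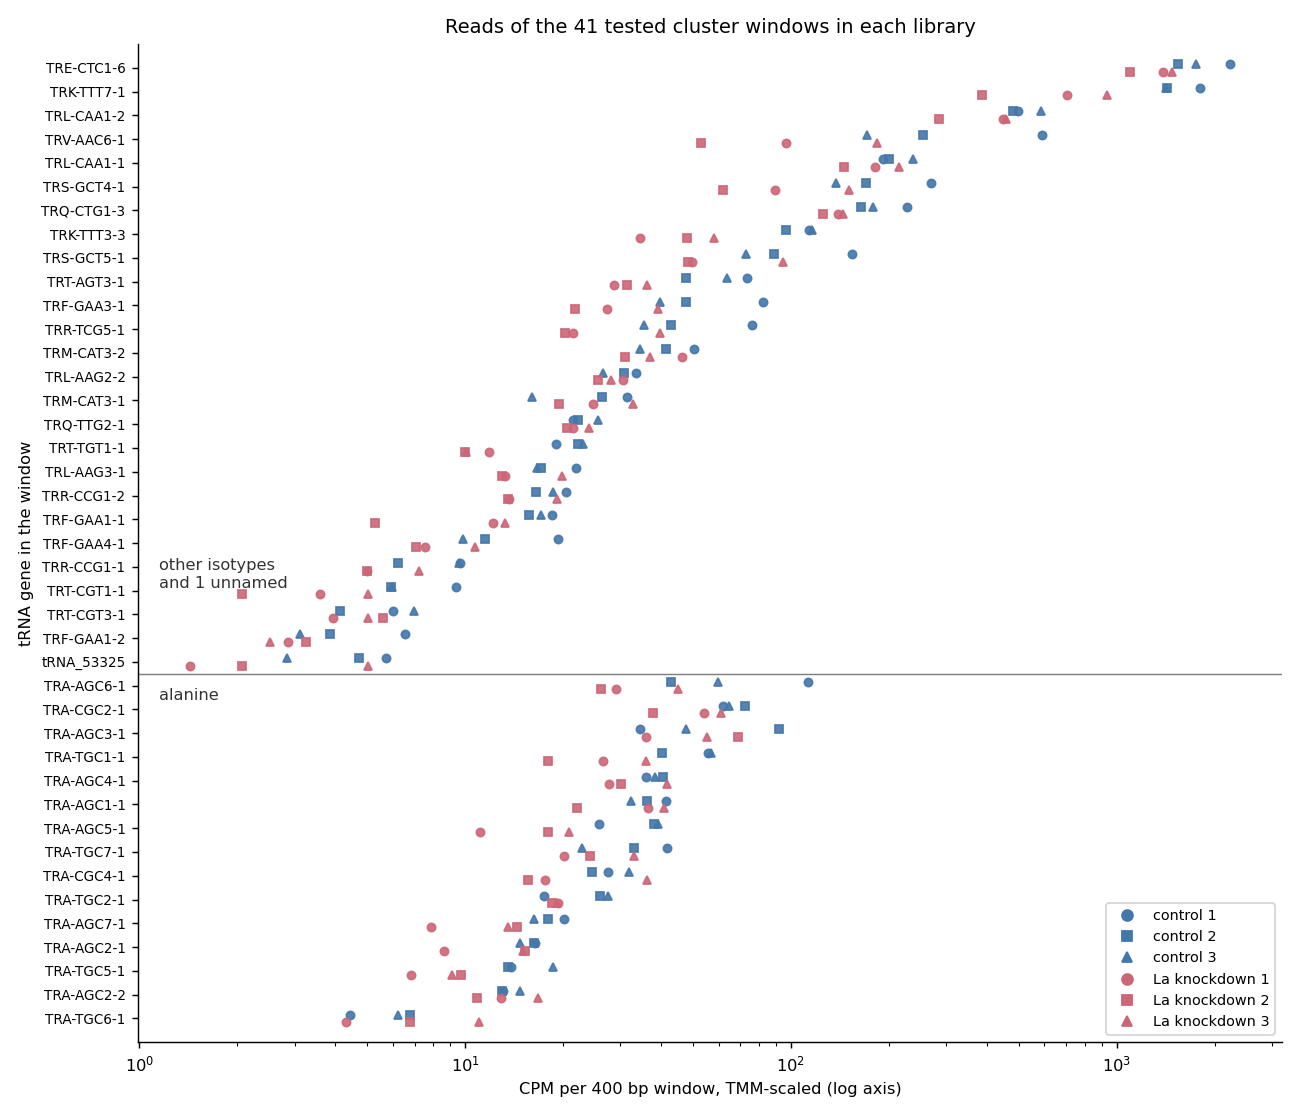
CPM of each of the 41 tested windows on a log axis, with alanine genes in the lower block and the other isotypes in the upper block, each sorted by control mean. Symbols are single libraries, with control in blue and La knockdown in red. TRE-CTC1-6 and TRK-TTT7-1 stand at the top, and no alanine window has a control mean above 71.8 CPM.

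Of the 45 windows, 41 passed the filter on low counts and were tested. The 4 others were TRI-TAT3-1, an isoleucine gene with counts of 11, 4 and 7 among controls against 2, 2 and 3 after La knockdown, and 3 windows without a RefSeq gene. Of these, tRNA_52106 had no count in any library, which allows up to 0.146 CPM over the 6 libraries (counting error only). tRNA_53322 had 3 counts in La knockdown replicate 1 alone, and tRNA_52461 had from 0 to 3 counts per library. The fourth unnamed window, tRNA_53325, was tested and had 22, 16 and 11 counts against 4, 7 and 16.

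The comparison of the arms asked what loss of La does to small RNA at these genes. Most windows of the stretch were read less in the La knockdown libraries, but 1 passed the threshold. The median log2 fold change of the 41 tested windows was -0.48, beside -0.05 over all 1064 tested windows and -0.42 over the 405 tested tRNA windows outside the stretch. A fitted value below 0 was found for 39 of 41, against 53.2% of all tested windows and 330 of the 405 tRNA windows outside the stretch. Called lower, at an adjusted p under 0.05 in edgeR's quasi-likelihood test with Benjamini-Hochberg adjustment over all tested windows, was 1 of 41, and 0 were called higher. The background was 4.79% of all tested windows called lower and 0.658% called higher, or 5.45% in either direction, so the 2.44% called in the stretch was not above the background. At an unadjusted p under 0.05, 13 of 41 (31.7%) were lower and 0 higher, against 14.2% and 9.68% of all tested windows. Among the 405 tRNA windows outside the stretch, 104 (25.7%) were lower and 3 higher, so most of that excess was shared by other tRNA windows. That count of 13 was 6 without La knockdown replicate 1, 8 without control replicate 1 and 6 with upper quartile factors.

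Windows were also counted by whether their arms overlapped. In 15 of 41 every La knockdown library had a lower CPM than every control library, and in 0 every one had a higher CPM. Over all tested windows these shares were 17.9% and 14.1%. Among the 405 tRNA windows outside the stretch 34.3% were lower without overlap, close to the 36.6% here.

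Scaling changed the size of the median and not its sign. Over the scalings tried it ran from -0.55 with library size alone to -0.15 with upper quartile factors, which moved the median of all windows by 0.32. Set against the median of all windows, the median of the stretch was -0.42 with TMM factors and -0.41 with upper quartile factors. With upper quartile factors 26 of 41 windows were fitted below 0 and 0 were called lower, and over all windows 36 were called lower and 58 higher, against 51 and 7 with TMM factors.

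**Figure D2:**
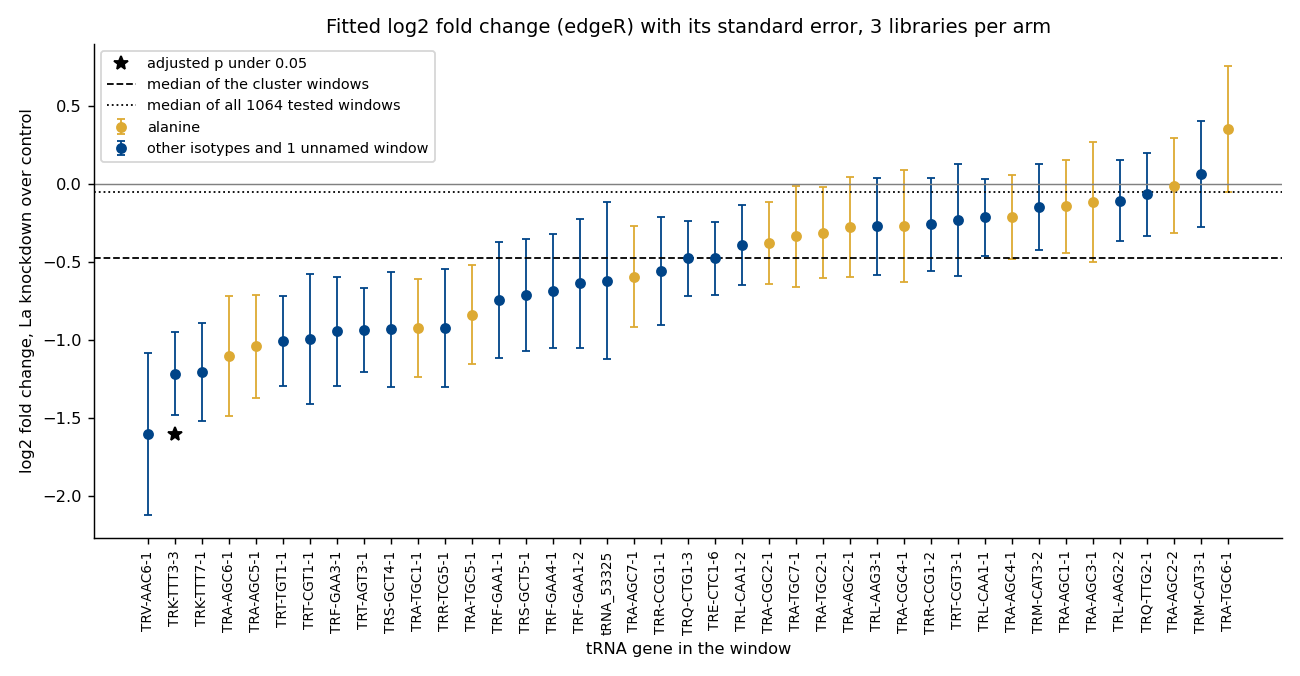
Fitted log2 fold change of the 41 tested windows, La knockdown over control, with its standard error, sorted from the lowest to the highest. Values run from -1.61 (TRV-AAC6-1) to 0.35 (TRA-TGC6-1), and the star marks the 1 window called, TRK-TTT3-3.

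The called window was TRK-TTT3-3, a lysine tRNA gene with anticodon TTT (window 28950879 to 28951278, gene 28951029 to 28951101). It had counts of 437, 326 and 449 among controls against 96, 163 and 184 after La knockdown. The highest La knockdown library lay below the lowest control library. Its level went from 109 ± 10.9 to 46.8 ± 11.8 CPM (SD, n = 3 each), a log2 fold change of -1.22 with SE 0.27 (edgeR adjusted p = 0.0280). The call was lost without control replicate 1, 2 or 3 (edgeR adjusted p = 0.0662, 0.0715 and 0.0695), without La knockdown replicate 1 (0.164) and with upper quartile factors (0.0520). The log2 fold change stayed between -1.47 and -0.90 over every alternative tried.

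The other lysine window, TRK-TTT7-1 (window 28747594 to 28747993), has a mature sequence of its own in the table and was read far more. It had counts of 6927, 4830 and 5487 among controls against 1957, 1307 and 2960 after La knockdown, again without overlap. The level was 1553 ± 221 CPM among controls against 673 ± 275 CPM after La knockdown (SD, n = 3), a log2 fold change of -1.21 (SE 0.32) that did not pass the threshold (edgeR adjusted p = 0.0567). Among the alternatives, edgeR called it with library size alone (adjusted p = 0.0282) and with library size less the 50 most read windows (0.0466). It was also called with DESeq2 (0.00954) and, in edgeR, with a replicate block (0.000772), without a filter (0.000153) and without La knockdown replicate 3 (0.0225). Lysine tRNA windows outside the stretch had 6 of 19 called lower and a median of -0.61.

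TRV-AAC6-1, the valine gene of the stretch (window 28735251 to 28735650), had the lowest fitted value. Its counts were 2256, 860 and 659 among controls against 270, 180 and 582 after La knockdown. On the CPM scale control replicate 1 stood at 589, the other controls at 254 and 171, and La knockdown replicate 3, at 183, lay above control replicate 3. The log2 fold change was -1.61 with SE 0.52 (edgeR adjusted p = 0.107), and without control replicate 1 it was -0.94 (adjusted p = 0.337). Among the alternatives, DESeq2 called it (adjusted p = 0.0242), as did the edgeR fits with a replicate block (0.000322) and without a filter (8.73e-07). It was also called in edgeR without control replicate 3 (0.0488) and without La knockdown replicate 3 (0.0360).

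The most read window, TRE-CTC1-6, had counts of 8564, 5217 and 6764 among controls against 3872, 3736 and 4712 after La knockdown. Its arms did not overlap on the CPM scale, at 1844 ± 355 against 1324 ± 200 (SD, n = 3). The log2 fold change of -0.48 with SE 0.23 (edgeR adjusted p = 0.234) did not pass the threshold.

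The leucine genes TRL-CAA1-2 (window 28940903 to 28941302) and TRL-CAA1-1 (28896079 to 28896478) carry an intron, as leucine CAA genes are known to, and share a mature sequence. TRL-CAA1-2 had 1903, 1621 and 2254 counts against 1245, 970 and 1448, a log2 fold change of -0.39 with SE 0.26 (edgeR adjusted p = 0.321). TRL-CAA1-1 had 734, 676 and 918 counts against 505, 495 and 683, a log2 fold change of -0.22 with SE 0.25 (edgeR adjusted p = 0.561). The arms of TRL-CAA1-2 did not overlap on the CPM scale, and those of TRL-CAA1-1 did. With upper quartile factors the value of TRL-CAA1-1 turned to 0.10.

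**Figure D3:**
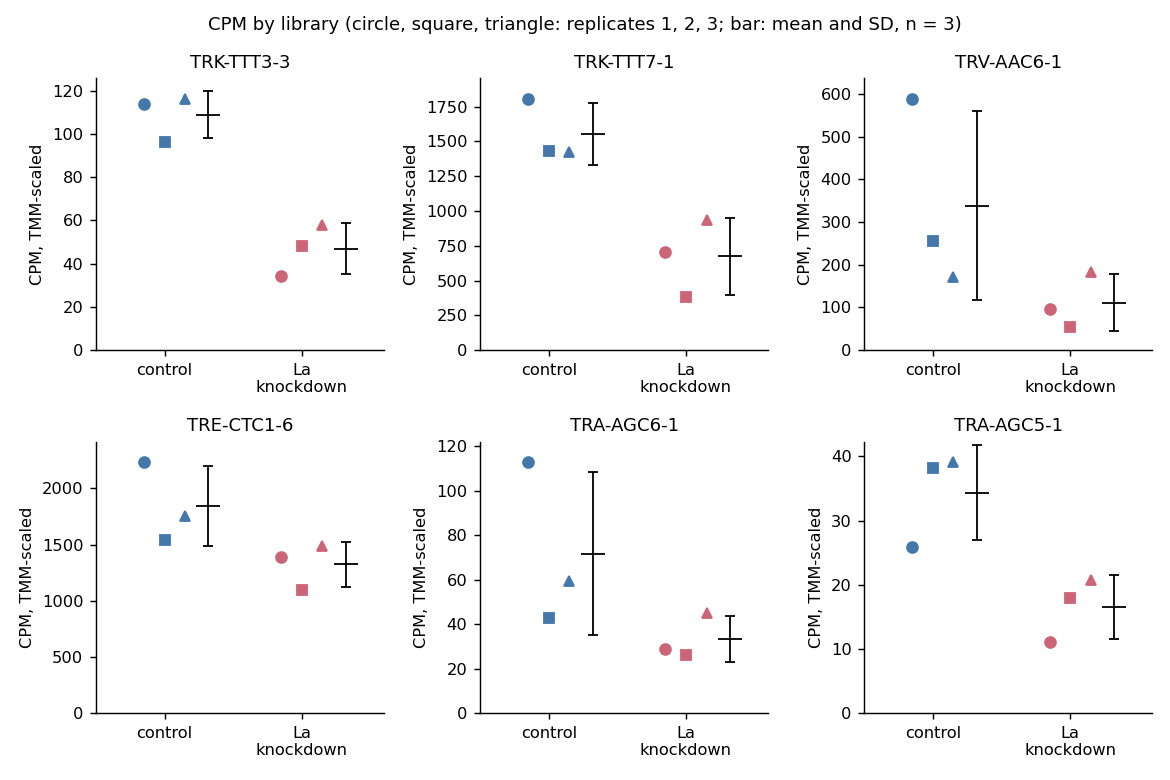
CPM of 6 windows in each library, from an axis that starts at 0, with control in blue and La knockdown in red. Circles, squares and triangles are replicates 1, 2 and 3, and the bars give the mean and SD (n = 3). The arms separate in the 2 lysine windows, TRE-CTC1-6 and TRA-AGC5-1 and overlap in TRV-AAC6-1 and TRA-AGC6-1.

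Alanine windows were all tested, and none of the 15 was called in the filtered edgeR fit with TMM factors and all libraries. Without a filter TRA-AGC6-1 and TRA-AGC5-1 were called lower (edgeR adjusted p = 0.00906 and 0.0496). TRA-TGC1-1 was called lower without La knockdown replicate 3 (edgeR adjusted p = 0.0417). The median log2 fold change was -0.31. Fitted below 0 were 14 of 15, against 330 of the 405 tRNA windows outside the stretch. At an unadjusted p under 0.05, 4 (26.7%) were lower and 0 higher, and 5 (33.3%) had arms without overlap, all lower. The like shares were 25.7% and 34.3% of the tRNA windows outside the stretch, and 14.2% and 17.9% of all tested windows. By these counts alanine windows were thus near the other tRNA windows. The 25 tested windows of other isotypes had a median of -0.64, with 24 fitted below 0 and 9 (36.0%) lower at an unadjusted p under 0.05. Upper quartile factors brought the alanine median to 0.00 (-0.004), and set against the median of all windows it was -0.26 with TMM factors and -0.27 with upper quartile factors.

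The alanine windows with the lowest fitted values were TRA-AGC6-1 and TRA-AGC5-1. TRA-AGC6-1 (window 28811894 to 28812293) had counts of 433, 145 and 230 among controls against 81, 89 and 143 after La knockdown. Control replicate 1 stood apart at 113 CPM, and La knockdown replicate 3, at 45.0 CPM, lay above control replicate 2, at 42.9 CPM. Its log2 fold change was -1.10 with SE 0.38 (edgeR adjusted p = 0.129), and without control replicate 1 it was -0.62 (adjusted p = 0.455). Without a filter it was called (0.00906), as by no other alternative.

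TRA-AGC5-1 (window 28710439 to 28710838) had 99, 129 and 151 counts against 31, 61 and 66, and its arms did not overlap. The level was 34.4 ± 7.41 CPM among controls against 16.6 ± 4.98 CPM after La knockdown (SD, n = 3), a log2 fold change of -1.04 with SE 0.33 (edgeR adjusted p = 0.101). It was called without a filter (0.0496) and without La knockdown replicate 3 (0.0464). At the other end TRA-TGC6-1 (window 28758186 to 28758585), the least read alanine window, had 17, 23 and 24 counts against 12, 23 and 35. Its log2 fold change of 0.35 with SE 0.40 (edgeR adjusted p = 0.565) lay within its error and turned to -0.13 without La knockdown replicate 3.

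The alanine windows were also described by anticodon, with no test between anticodons. The median log2 fold change of the 8 AGC windows was -0.24 with a range from -1.10 to -0.01, that of the 5 TGC windows -0.34 with a range from -0.92 to 0.35, and the CGC windows TRA-CGC2-1 and TRA-CGC4-1 had -0.38 and -0.27. Summed over the 15 windows, alanine CPM was 523, 513 and 492 among controls against 318, 336 and 455 after La knockdown. The 3 controls lay close together, and La knockdown replicate 3 was nearer to them than replicates 1 and 2. In bulk libraries such as these, fewer cells with a tRNA and less of it per cell cannot be told apart.

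Whether alanine and the other isotypes moved apart was tested by the share of the counts of the stretch that lay in alanine windows, which needs no scaling. It was 8.64% ± 1.19 among controls against 10.2% ± 1.67 after La knockdown (SD, n = 3). The arms overlapped, and their means differed by 1.53 percentage points (two-sided exact permutation p = 0.3, Benjamini-Hochberg adjusted over 4 shares 0.3, smallest possible 0.1). Without La knockdown replicate 1 it was 2.34 points, without control replicate 1 it was 0.88 points and without La knockdown replicate 2 it was 0.68 points. This test cannot pass 0.05 with 3 libraries per arm, and it sets alanine against a remainder in which TRE-CTC1-6 and TRK-TTT7-1 hold most reads, so it does not compare the isotypes with each other.

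Among the remaining isotypes the threonine windows came nearest to the lysine values. Of their 4 windows 3 were lower at an unadjusted p under 0.05 and 3 had arms without overlap, with log2 fold changes from -1.01 (TRT-TGT1-1) to -0.23 (TRT-CGT3-1). Those shares were 25.7% and 34.3% of the tRNA windows outside the stretch, and 14.2% and 17.9% of all tested windows. The 4 phenylalanine windows ran from -0.94 to -0.64, the serine windows from -0.93 to -0.71 and the arginine windows from -0.92 to -0.26. The glutamine windows were at -0.48 and -0.07 and the 4 leucine windows between -0.39 and -0.11. None of these windows was called in the filtered edgeR fit with TMM factors and all libraries. TRT-AGT3-1 was called with DESeq2 (adjusted p = 0.0306) and, in edgeR, without La knockdown replicate 3 (0.0454), and TRS-GCT4-1 was called in edgeR without a filter (0.0272) and without La knockdown replicate 3 (0.0414).

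The methionine windows lay nearest to 0. TRM-CAT3-1 (window 28944425 to 28944824) had counts of 120, 89 and 62 among controls against 69, 66 and 104 after La knockdown, a log2 fold change of 0.06 with SE 0.34 (edgeR adjusted p = 0.907). The direction turned to -0.17 without control replicate 3, to -0.23 without La knockdown replicate 3 and to -0.19 without a filter. TRM-CAT3-2, with the same mature sequence, was at -0.15.

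Of the 41 named windows 26 carried a mature sequence that no other named tRNA window of the table had, going by the symbols. The other 15 shared 10 mature sequences with copies here or elsewhere, and reads of such copies may not be assigned to a single gene with certainty. For TRE-CTC1 the 7 copies in the table, of which TRE-CTC1-6 is 1, had nearly the same counts, from 8478 to 9055 in control replicate 1 and from 3872 to 4365 in La knockdown replicate 1. Their log2 fold changes ran from -0.48 to -0.42, and reads of TRE-CTC1-6 may not be told apart from those of its copies.

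The lysine copies were less alike as a set. The most and the least read of the 5 copies of TRK-TTT3 differed in count by at least 5.14 times within each library. Log2 fold changes of the 5 ran from -1.74 (TRK-TTT3-4, on chromosome 11) to -0.57 (TRK-TTT3-1, on chromosome 1). Counts of TRK-TTT3-2 and TRK-TTT3-5 lay much nearer to those of TRK-TTT3-3. TRK-TTT3-2 had 455, 342 and 331 among controls against 105, 128 and 171, and a log2 fold change of -1.24. TRK-TTT3-5 had 462, 249 and 299 against 89, 122 and 174, with -1.15. Reads of TRK-TTT3-3 may not be told apart from those of such copies. Of the 5, TRK-TTT3-2 and TRK-TTT3-4 were called lower beside TRK-TTT3-3 (edgeR adjusted p = 0.0247 and 0.0148), and TRK-TTT3-1 and TRK-TTT3-5 were not (0.241 and 0.0605). For TRF-GAA1 the 6 copies ran from -0.80 to 0.06, with the copies of the stretch at -0.75 and -0.64.

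The alanine pair TRA-AGC2-1 and TRA-AGC2-2, which lie within the stretch and share a mature sequence, had similar counts. TRA-AGC2-1 had 63, 55 and 57 counts against 24, 52 and 48, and TRA-AGC2-2 had 50, 44 and 57 against 36, 37 and 53. Their log2 fold changes were -0.28 and -0.01, a gap smaller than the standard error of either (0.32 and 0.30). Windows with a mature sequence of their own, which may still share reads with near-identical ones, had a median of -0.68 over the 25 tested, and 0 were called. At an unadjusted p under 0.05, 11 of these 25 (44.0%) were lower and 0 higher. Lower were 25.7% of the tRNA windows outside the stretch and 14.2% of all tested windows.

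**Figure D4:**
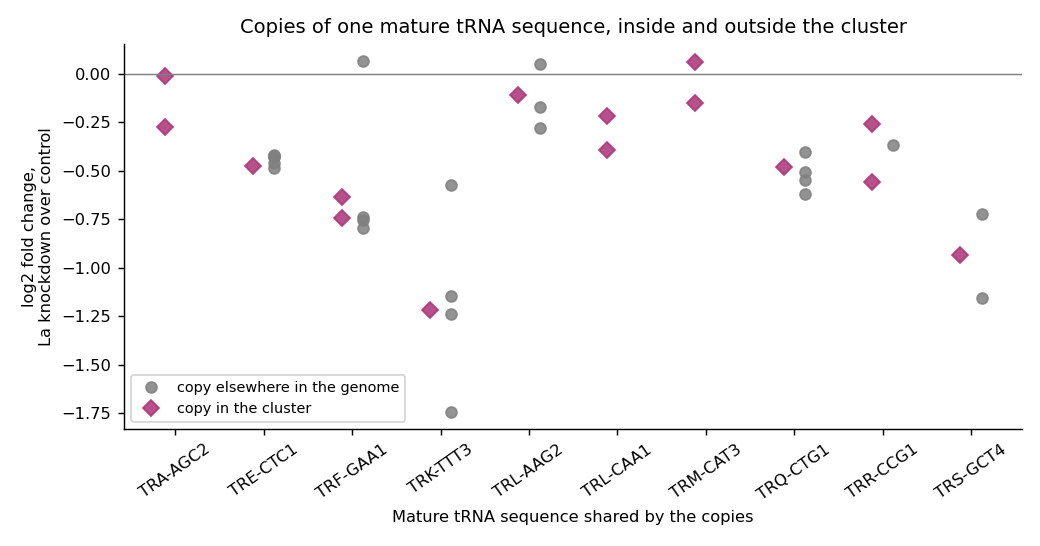
Fitted log2 fold change, La knockdown over control, of each copy of the 10 mature tRNA sequences that the stretch shares with another window, with copies in the stretch as diamonds and copies elsewhere as circles. The 7 TRE-CTC1 copies lie between -0.48 and -0.42, while the 5 TRK-TTT3 copies spread from -1.74 to -0.57.

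Set against the other tRNA genes, the stretch took a smaller part of the tRNA reads in each La knockdown library than in any control. Of all tRNA window counts it held 4.27%, 3.59% and 3.82% among controls against 3.04%, 2.76% and 3.42% after La knockdown. The arms did not overlap. The 95% Wilson interval of control replicate 1, which covers counting error only, ran from 4.22% to 4.32%. The difference between the arm means was -0.82 percentage points (exact permutation test, two-sided p = 0.1, the smallest possible, adjusted over 4 shares 0.133). Leaving out each library in turn gave differences from -0.99 to -0.63 points. Such a share follows its most read windows. The 2 lysine windows, mostly TRK-TTT7-1, held 24.9% of the counts of the stretch over all 6 libraries. Their summed CPM had a log2 ratio of -1.21. The share without them was not tested, so the difference is not shown for the windows of the stretch as a set.

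Neighbouring tRNA genes on the same chromosome were much alike in median log2 fold change, while a larger share of them was called. The 103 tRNA windows with a start from 26000000 up to 28200000 had 89 tested, of which 8 (8.99%) were called lower and 0 higher, with a median log2 fold change of -0.49. The remaining 386 tRNA windows had 316 tested, of which 22 (6.96%) were called lower and 0 higher, with a median of -0.40. Called lower were 2.44% of the stretch (1 of 41) and 4.79% of all tested windows. The summed CPM of the stretch was 5982 ± 990 among controls against 3688 ± 842 after La knockdown, a log2 ratio of -0.70, against -0.26 for the neighbouring windows and -0.37 for the remaining ones (SD, n = 3). A sum follows its most read windows, here the lysine, glutamate and leucine genes.

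Alanine tRNA genes also lie elsewhere in the genome. Their 12 windows, of 11 genes and with 2 windows of identical counts, were all tested, 0 were called, and their median log2 fold change was -0.15. At an unadjusted p under 0.05, 0 were lower and 2 higher. Their summed CPM was 276 ± 17.9 among controls against 294 ± 36.1 after La knockdown, with overlap, while that of the stretch was 509 ± 16.1 and 370 ± 74.2 (SD, n = 3).

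The part of all alanine tRNA counts that lay in the stretch was 66.3%, 65.9% and 62.4% among controls against 54.6%, 50.2% and 61.7% after La knockdown. The arms were separated by less than 1 point, between control replicate 3 and La knockdown replicate 3 (exact permutation test, two-sided p = 0.1, the smallest possible, adjusted over 4 shares 0.133). For lysine the part in the stretch was 38.4% ± 1.29 and 34.6% ± 3.39 (SD, n = 3, exact permutation p = 0.1, adjusted 0.133). Both of these shares were chosen after the values of the windows had been seen.

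**Figure D5:**
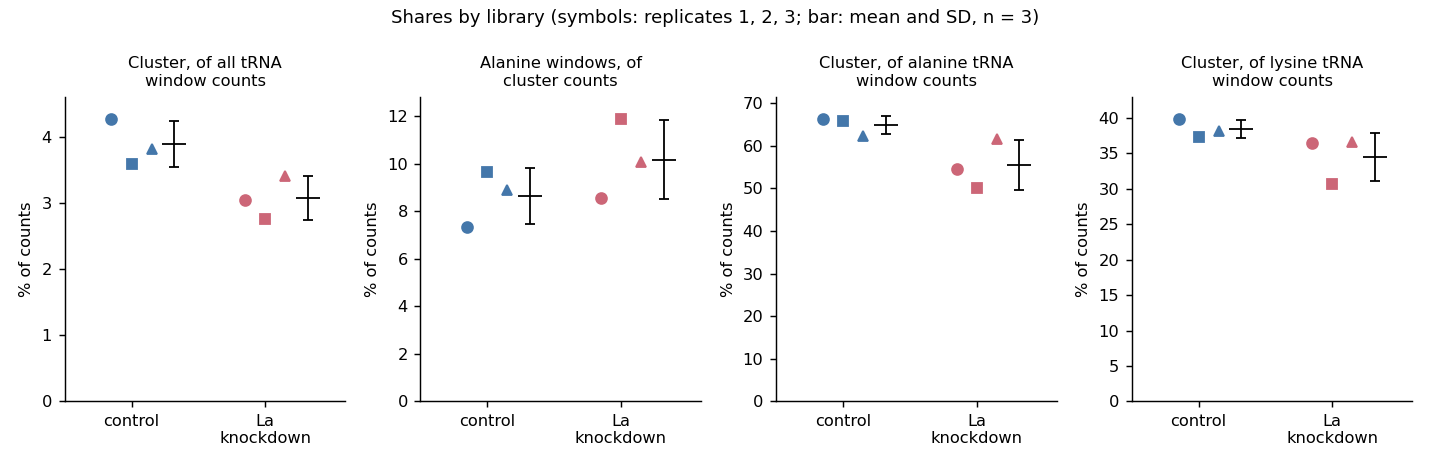
Shares of counts in each library as percentages on axes that start at 0, with control in blue and La knockdown in red. Symbols are replicates 1, 2 and 3, and the bars give the mean and SD (n = 3). From left to right the panels show the stretch among all tRNA windows, alanine among the stretch, and the stretch among alanine and among lysine tRNA windows. The arms overlap in the second panel alone.

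Single libraries set part of the spread within the arms. La knockdown replicate 3 had the highest CPM of its arm in 31 of 41 windows, which is 75.6% against 39.8% of all tested windows. Control replicate 1 was the highest of its arm in 25 of 41 windows, which is 61.0% against 47.8% of all tested windows. It exceeded both other controls by more than 1.5 times in 9 of 41 windows, which is 22.0% against 14.0% of all tested windows. These 9 were TRV-AAC6-1, TRA-AGC6-1, TRR-TCG5-1, TRS-GCT5-1, TRS-GCT4-1, TRT-CGT1-1 and 3 phenylalanine genes, TRF-GAA3-1, TRF-GAA1-2 and TRF-GAA4-1. The part of these libraries in the results was not tested beyond leaving each out. Without control replicate 1 the median of the stretch was -0.38 with 0 windows called, against 2.69% of all windows called lower in that fit. Without control replicate 2, 0 were called, against 2.54% of all windows, and without La knockdown replicate 1, 0 were called in the stretch and 0 over all windows. Without La knockdown replicate 3 it was -0.64 with 7 called lower, which is 17.1%, where that fit called 98 of 1139 windows lower.

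Across the 41 windows, which share libraries and depth and are not independent replicates, the log2 fold change and the log2 control CPM had a Spearman correlation of -0.277. Control CPM enters both values, so error in the control counts alone can push this correlation towards negative values. It therefore does not test a link between level and fall. Among other RNA polymerase III genes taken as a list (vault RNAs, 7SK, 7SL, RNase P and MRP RNAs, Y RNAs and BC200), 2 of 16 tested windows were called lower, those of VTRNA1-1 and VTRNA1-2, and 0 higher. The median of that list was 0.05.

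The authors' deposited table called 4 of the 45 windows lower at an adjusted p under 0.05 and 0 higher, where it called 0.149% of all its windows lower and 0.00373% higher. Those shares are over 53603 windows with a median control CPM of 0, while 41 of the 45 windows here passed the filter on low counts. They are thus not a like background for the stretch. In the authors' deposited table these were TRV-AAC6-1 (log2 fold change -1.80, adjusted p 2.93e-05), TRK-TTT7-1 (-1.43, 0.00196), TRK-TTT3-3 (-1.47, 0.00416) and TRA-AGC6-1 (-1.34, 0.0454). Of these 4, TRK-TTT3-3 was called in the filtered fit used here, and TRA-AGC6-1 is an alanine gene. Without a filter, edgeR called all 4 here among 6 lower windows of the stretch. TRV-AAC6-1 and TRA-AGC6-1, called in the authors' deposited table, are the windows in which control replicate 1 exceeded the other controls most, by 2.32 and 1.90 times the next highest. Whether that library bears on the authors' calls was not tested.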

How the data were processed

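Read counts per 400 bp window, as deposited by the authors, are raw and whole. Trim Galore, Bowtie2, bedtools, edgeR and the build GRCh38 are named in the submitters' processing notes. Versions, strand use and the placing of reads with several positions are not given in the sources used here. Per the labels' protocols, small RNA was treated with phosphatase and polynucleotide kinase before library preparation. The authors' deposited table of the comparison gives a log2 fold change, a log2 CPM, an F score and p-values, per the file headers.

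Windows took RefSeq GRCh38.p14 tRNA names at an overlap of at least 20 bp. Starts were shifted by 1 to print positions. No sequence of these genes was used here. Arms were compared with edgeR 4.0.16 (R 4.3.3, filterByExpr, TMM factors, glmQLFTest) over 1064 windows, and checked on simulated data. Standard errors come from the fold change and F. DESeq2 1.42.0, other scalings, filters, a replicate block and leaving out libraries were the alternatives.

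Named were windows called, the 5 with the most CPM, the 5 with the lowest fitted values and up to 3 with the highest above 0. Further windows were named by isotype, shared mature sequence or values already seen. The set and the lists were chosen with earlier results of these data known.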

Additional observations from a re-analysis of the deposited data

How the results depend on the processing

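Over the alternatives, 0 windows of the stretch were called higher. Windows of the stretch called lower were 1 in the filtered edgeR fit with TMM factors and all libraries. They were 2 with library size alone (4.88%, against 6.48% of all windows in that fit) and 2 without the 50 windows with the most counts in the library size (4.88% against 5.17%). They were 4 with DESeq2 (9.76% against 7.14%), 6 without a filter (13.6% against 0.476%) and 0 with upper quartile factors (against 3.38%). At an adjusted p under 0.01 they were 0 (13 at an unadjusted p under 0.05). They ranged from 0 to 7 over the fits that left out 1 library. The fit without a filter took in 21830 windows, against 1064 with it. Its share over all windows is therefore not comparable with the others. Deviations of same-numbered libraries correlated at 0.14, 0.23 and -0.46. Without such values for differently numbered libraries, these cannot decide whether the numbers pair them. The replicate block gave 3 lower windows in the stretch (7.32% against 8.27%), TRV-AAC6-1 (edgeR adjusted p = 0.000322), TRK-TTT7-1 (0.000772) and TRK-TTT3-3 (0.00822), and 88 lower and 20 higher over all windows. The median of the stretch moved to -0.153 and that of the other isotypes to -0.313 with upper quartile factors. Over all windows, 51 lower and 7 higher became 36 lower and 58 higher with upper quartile factors, 76 lower and 23 higher with DESeq2, 104 lower and 4 higher without a filter, 4 higher with a mean of at least 20 counts, and 1 lower and 0 higher at an adjusted p under 0.01. Fits without 1 library gave from 0 to 98 lower and from 0 to 21 higher. Reversed values were TRL-CAA1-1 at 0.099 with upper quartile factors, TRM-CAT3-1 at -0.187 without a filter, at -0.168 without control replicate 3 and at -0.227 without La knockdown replicate 3, and TRA-TGC6-1 at -0.129 without La knockdown replicate 3. Fits without 1 library put TRM-CAT3-1 between -0.227 and 0.274 and TRA-TGC6-1 between -0.129 and 0.590. Of 160 values of the 10 named windows, 135 kept direction and side of the threshold, 14 were stronger and 6 weaker. A stricter threshold lowers counts by construction, and for the other alternatives the cause was not tested.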
